A study of Mus musculus with 6 samples.

Results

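Transcripts of 5 genes of T cells (Cd3d, Cd3g, Cd8b1, Lck and Il7r) were followed on the arrays of mouse follicular dendritic cell (FDC) cultures, bone marrow-derived dendritic cells (BMDC) and the FDC-like line FL-Y. The genes were chosen on their measured difference between FDC and BMDC, so the FDC and BMDC values of the members are given as a description, with no test. Of the 5 genes, 4 had a probe set annotated to that gene alone, out of 18193 named genes; these 4 had 5 probe sets of 45101. Lck was not analysed here. Only Cd3d and Cd3g encode subunits of the T cell receptor complex itself; the others encode a co-receptor chain, a kinase and a cytokine receptor of T cells.

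Activated FL-Y (1 array) was FL-Y activated with anti-lymphotoxin beta receptor, and FL-Y (1 array) is an SV40-transformed line with FDC-like features. FDC (2 arrays) were cultured in vitro before RNA extraction, and BMDC (2 arrays) are dendritic cells grown from bone marrow. The labels name no strain, age or culture time, and nothing in them says that the arrays of a group came from separate animals or cultures, so each p reflects only how far these arrays scatter, which may be technical. The design text names the comparison of FDC with BMDC.

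The T cell receptor recognises peptides on MHC molecules through its variable alpha and beta chains, and the CD3 gamma, delta, epsilon and zeta chains carry the signal into the cell. CD8 beta pairs with CD8 alpha as the co-receptor for MHC class I, and the kinase LCK, bound to the co-receptors, phosphorylates the CD3 chains. The interleukin 7 receptor alpha chain pairs with the common gamma chain to bind IL-7, a survival factor of T cells that lymphoid stroma makes, and with CRLF2 to bind TSLP, a cytokine that acts on dendritic cells. In lymphoid follicles, FDC are the stromal cells that hold antigen for B cells, and CD3 genes are not among their known products.

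Cd3d and Cd3g lie next to each other and are read in opposite directions, and their start sites in the RefSeq promoter table (GRCm38.p6) are 1355 bases apart. Promoter windows of 300 bases (250 before the start site and 50 after it) are shown for this pair and for Il7r. The pair was higher in FDC than in BMDC and Il7r was lower. The genes were chosen on this difference, so nothing about the windows is read from it. The table held windows for 4 of the 5 genes, all but Cd8b1. The Cd3d window is chr9:44981536-44981835 on the plus strand, the Cd3g window chr9:44980382-44980681 on the minus strand and the Il7r window chr15:9529827-9530126 on the minus strand. Capitals mark the E-box CANNTG and the Ets core AGGAAGT, searched on both strands; these do not overlap each other in the windows shown.
Cd3d: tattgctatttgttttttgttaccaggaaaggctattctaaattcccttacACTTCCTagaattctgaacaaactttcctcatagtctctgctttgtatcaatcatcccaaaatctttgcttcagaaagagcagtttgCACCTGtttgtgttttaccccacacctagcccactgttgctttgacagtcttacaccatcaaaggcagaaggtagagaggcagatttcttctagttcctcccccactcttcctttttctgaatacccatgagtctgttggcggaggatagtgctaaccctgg
Cd3g: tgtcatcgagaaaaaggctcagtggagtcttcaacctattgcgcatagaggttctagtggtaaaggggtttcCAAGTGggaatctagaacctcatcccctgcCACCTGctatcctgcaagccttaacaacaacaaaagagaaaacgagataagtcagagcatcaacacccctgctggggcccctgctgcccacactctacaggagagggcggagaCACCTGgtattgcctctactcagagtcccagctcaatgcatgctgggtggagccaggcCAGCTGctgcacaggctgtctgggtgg
Il7r: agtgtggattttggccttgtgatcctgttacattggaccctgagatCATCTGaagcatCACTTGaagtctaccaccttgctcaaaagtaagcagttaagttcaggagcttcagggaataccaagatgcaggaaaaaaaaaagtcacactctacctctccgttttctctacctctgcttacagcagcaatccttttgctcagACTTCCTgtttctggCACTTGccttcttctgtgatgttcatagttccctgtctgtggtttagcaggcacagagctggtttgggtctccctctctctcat
The E-box was found 1 time in the Cd3d window, 4 times in that of Cd3g and 3 times in that of Il7r. The Ets core was found 1 time each in Cd3d and Il7r, and 0 times in Cd3g. Of all 32851 windows of this length, 72.3% held an E-box and 9.35% the Ets core.

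Signals are the deposited linear values, scaled by array. Each array's 20th percentile, 8.7 at the lowest and 15.4 at the highest, is used as a mark of background level, not as a measured detection limit. Differences are on the scale of log2(signal + 14.2), which understates the change of dim probe sets. Array medians lay between 47.9 and 84.4. In bulk RNA, fewer cells of a type and less RNA per cell cannot be told apart.

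Transcripts of Cd3d, Cd3g and Cd8b1 were present on both FDC arrays and at or near background level in FL-Y. Cd3d, the CD3 delta chain, read 898 and 489 on FDC arrays 1 and 2, against 62.0 and 11.2 on BMDC arrays 1 and 2. The activated FL-Y array gave 2.6 and the FL-Y array 3.1, both under background level. The FDC arrays were high, did not overlap the BMDC arrays, and BMDC array 1 stood above background while array 2 did not. The mean was 694 ± 289 in FDC and 36.6 ± 35.9 in BMDC (SD, n = 2 each), a log2 difference of 3.95 ± 0.66 (SE).

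Cd3g, the CD3 gamma chain, showed the same order. It read 491 and 280 on the FDC arrays, against 45.6 and 11.0 on the BMDC arrays. Activated FL-Y gave 1.5 and FL-Y 25.3, so the line was between the BMDC arrays before activation and under background level after it. The log2 difference, FDC minus BMDC, was 3.31 ± 0.58 (SE).

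Cd8b1, the CD8 beta chain, read 230 and 149 on the FDC arrays, against 11.1 and 6.0 on the BMDC arrays, which were both under their own 20th percentile. Activated FL-Y gave 1.4 and FL-Y 22.5. The log2 difference between FDC and BMDC was 3.14 ± 0.42 (SE), and its size rests on the offset because the BMDC signals were at background level.

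Il7r, the IL-7 receptor alpha chain, ran the other way and was measured by 2 probe sets. Probe set 1448575_at read 175 and 360 on the FDC arrays, against 8519 and 3245 on the BMDC arrays, with 7.2 in activated FL-Y and 47.3 in FL-Y. Probe set 1448576_at had 64.7 and 122 on the FDC arrays, against 4570 and 1981 on the BMDC arrays, with 1.8 in activated FL-Y and 1.8 in FL-Y. Both probe sets gave the order BMDC, FDC, FL-Y, with no overlap between the FDC and BMDC arrays. The log2 differences, FDC minus BMDC, were -4.31 ± 0.64 and -4.87 ± 0.57 (SE).

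**Figure D1:**
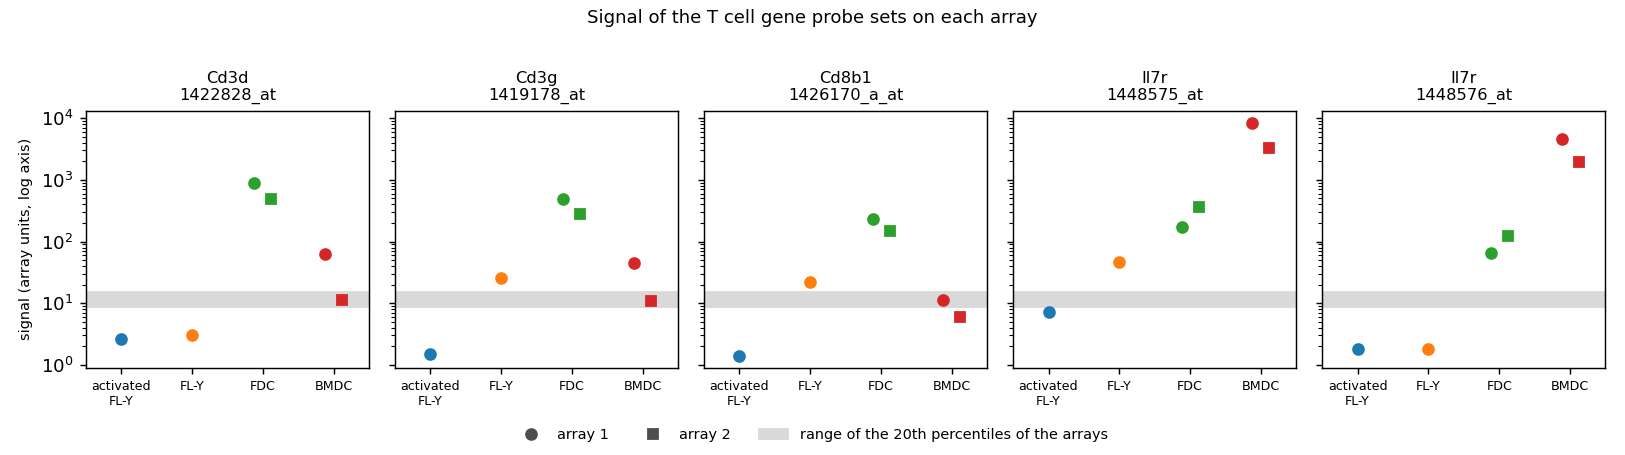
Signal (log axis, array units) of the 5 probe sets on each array, by group; circles are array 1 and squares array 2, and the grey band spans the 20th percentiles of the arrays, 8.7 to 15.4. Cd3d, Cd3g and Cd8b1 are highest on the FDC arrays, and both Il7r probe sets on the BMDC arrays.

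All 5 probe sets passed the filter on low values, a mean on the log2 scale equal to a signal of 46.4 over the FDC and BMDC arrays. Limma called 3 of them higher and 2 lower in FDC, beside 4.84% and 4.09% of the 27022 probe sets tested; since this contrast chose the genes, nothing is read from these counts. Both FDC arrays lay above both BMDC arrays for 3 probe sets and below them for 2, beside 25.8% and 28.9% of all probe sets tested. The median log2 difference over all probe sets tested was -0.05.

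Between the 2 FDC arrays, Il7r and the CD3 and CD8 genes differed in opposite directions, by amounts within the spread of all probe sets tested. FDC array 1 was higher than FDC array 2 by 1.84 times for Cd3d, 1.75 times for Cd3g and 1.54 times for Cd8b1. For Il7r the ratio of FDC array 1 to FDC array 2 was 0.49 and 0.53 at its 2 probe sets. These differences, 0.86, 0.78, 0.58, -0.99 and -0.78 on the log2 scale, lay within the 5th to 95th percentiles of all probe sets tested, -1.56 to 1.57. On the BMDC arrays all 5 probe sets were higher on array 1, by 1.85 to 5.54 times.

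Over the 6 arrays the log2 profiles of the members correlated at r = 0.97 between Cd3d and Cd3g, 0.98 between Cd3g and Cd8b1 and 0.93 between Cd3d and Cd8b1. Il7r correlated with them at 0.15, 0.08 and -0.10 in the order Cd3d, Cd3g, Cd8b1. The genes were chosen on the FDC and BMDC arrays, which are among these 6, so the correlations follow in part from that choice. The 6 arrays are 4 kinds of cells, and other genes shared such profiles: 118 of 12746 other genes tested exceeded 0.95 with Cd3d, 107 with Cd3g, 95 with Cd8b1 and 411 with Il7r. The 3 genes most alike were Trim34a, Gpx3 and Kif3c for Cd3d, Smug1, Tlcd2 and Lrrc28 for Cd3g, Manea, Fbxo4 and Plaat3 for Cd8b1, and Ppfibp2, Rilp and Pstpip1 for Il7r. Gpx3 read 19300 and 6847 on the FDC arrays, against 681 and 204 on the BMDC arrays, and Pstpip1 read 255 and 424 on the FDC arrays, against 3255 and 2025 on the BMDC arrays.

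In FL-Y all 5 probe sets were lower than in FDC by at least 2 on the log2 scale, as were 6.58% of all probe sets tested. The differences, FL-Y minus FDC, were -5.29 for Cd3d, -3.29 for Cd3g, -2.44 for Cd8b1, and -2.11 and -2.69 for Il7r. FL-Y has 1 array and the FDC arrays had chosen the genes, so these are sizes with no replicate check. Against BMDC, FL-Y was lower by at least 2 for both Il7r probe sets, at -6.42 and -7.56, and for none of the other 3, beside 10.3% of all probe sets tested. The differences for Cd3d, Cd3g and Cd8b1, FL-Y minus BMDC, were -1.35, 0.03 and 0.70; Cd3d and Cd3g stood above background level on BMDC array 1 and not on BMDC array 2.

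The remaining genes of the receptor complex were read next. Of 21 symbols listed for the complex and its co-receptors, 7 were named on the array and 6 tested, and limma called 0 higher and 0 lower in FDC (before adjustment, 3 and 0 had p under 0.05). Over representative probe sets, the one of highest mean for each gene, limma called 5.87% of the 12750 genes tested higher and 5.40% lower. These shares are the background for the called counts of each list below. No such share is given for the counts before adjustment, here or below, so nothing is read from those. The median log2 difference of the 6 genes was 0.78, beside -0.03 over all genes tested.

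Cd3e, the CD3 epsilon chain, read 148 and 131 on the FDC arrays, against 69.6 and 6.9 on the BMDC arrays, with 19.4 in activated FL-Y and 28.8 in FL-Y. The FDC arrays lay above the BMDC arrays, and the log2 difference of 1.87 ± 0.71 (SE) did not pass the threshold (limma, adjusted p = 0.197); it was 0.87 without BMDC array 2 and 2.86 without BMDC array 1. Cd247, the zeta chain, had 66.8 and 70.3 on the FDC arrays, against 88.1 and 53.6 on the BMDC arrays, and its log2 difference was -0.01 ± 0.41 (limma, adjusted p = 0.992). Its 1452539_a_at probe set read 154 and 113 on the FDC arrays, against 47.6 and 34.3 on the BMDC arrays, so its probe sets disagreed.

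Cd8a, which pairs with CD8 beta and is also carried by some dendritic cells, had 205 and 82.0 on the FDC arrays, against 37.7 and 11.0 on the BMDC arrays at its representative probe set, a log2 difference of 2.00 ± 0.61 (limma, adjusted p = 0.120). Another of its 5 probe sets, 1425335_at, read 319 and 13.0 on the FDC arrays, against 47.9 and 37.9 on the BMDC arrays, so FDC array 2 was under background level there. Cd4 had 131 and 63.6 on the FDC arrays, against 32.5 and 31.0 on the BMDC arrays, and its log2 difference was 1.21 ± 0.46 (limma, adjusted p = 0.194).

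Tcra, the alpha chain gene as the annotation names it, was below the filter, with 44.3 and 68.8 on the FDC arrays, against 2.9 and 18.6 on the BMDC arrays. The annotation also names receptor gene segments, a set picked by symbol after its values were seen and therefore given with no test. It holds 17 probe sets of 10 genes, with the Tcra probe set counted among them, and 6 probe sets passed the filter. Of all 17, 6 had both FDC arrays above both BMDC arrays, Tcra among them, and 4 had them below. Of the 6 past the filter, which a high FDC signal helps to pass, 4 were above and 1 below. Over all probe sets tested these shares were 25.8% and 28.9%. The 4 past the filter that were above were 3 probe sets of Trav9d-3, an alpha chain variable segment, and 1 of Trbv1, a beta chain variable segment. Probe sets of such segments can cross-hybridise with related segments, so the segment itself is uncertain.

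Trav9d-3 at 1426113_x_at had 1996 and 1001 on the FDC arrays, against 173 and 77.7 on the BMDC arrays. Activated FL-Y gave 393 and FL-Y 565 at that probe set, above both BMDC arrays. The same order held at 1426168_a_at, with 647 and 523 on the FDC arrays, 114 and 274 in activated FL-Y and FL-Y, and 87.3 and 86.2 on the BMDC arrays. Unlike Cd3d, which was under background level in FL-Y, these probe sets kept signal in the line. Trbv1 had 319 and 189 on the FDC arrays, against 63.1 and 13.9 on the BMDC arrays, with 29.5 in activated FL-Y and 34.9 in FL-Y.

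**Figure D2:**
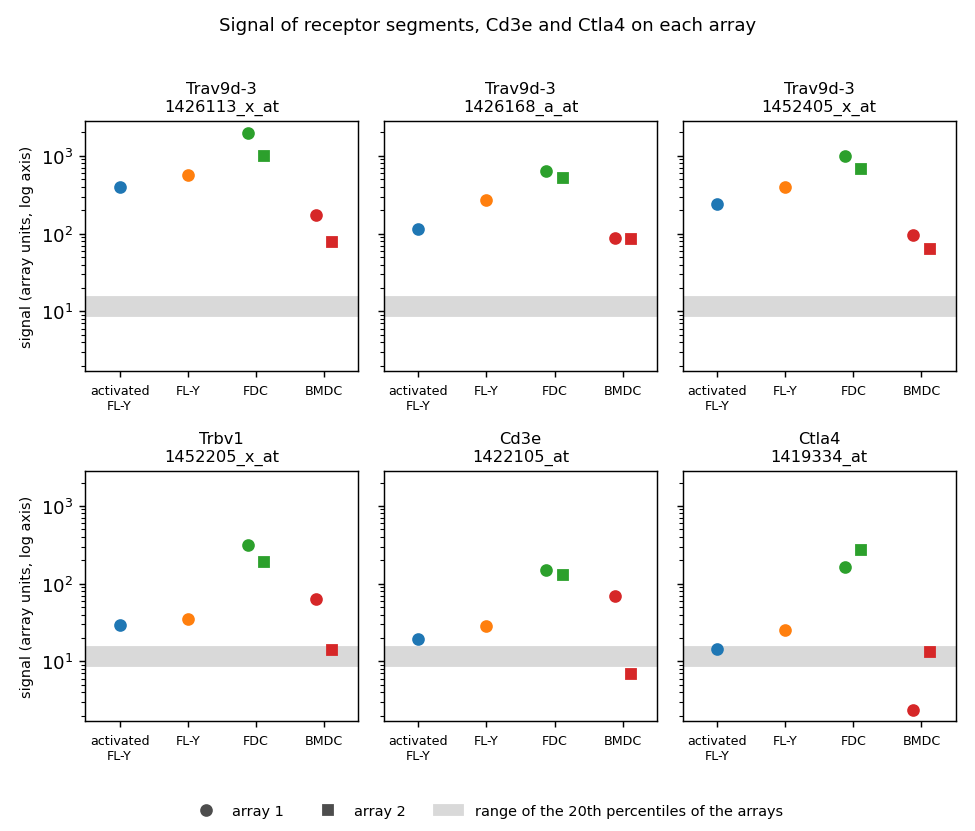
Signal (log axis, array units) of 4 probe sets of receptor segments, of Cd3e and of Ctla4 on each array, with circles for array 1, squares for array 2 and the grey band for the range of the 20th percentiles. FDC arrays are highest in each panel, and the 3 Trav9d-3 panels keep signal in FL-Y.

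Genes of signalling near the receptor, with co-stimulatory and inhibitory receptors among them, did not move as a single group. Of 25 listed, 18 were tested. Limma called 1 higher and 2 lower in FDC, beside 5.87% and 5.40% of genes tested (before adjustment, 2 and 3 had p under 0.05). Their median log2 difference was -0.16. The 1 that rose was Ctla4, an inhibitory receptor of activated and regulatory T cells. It read 166 and 270 on the FDC arrays, against 2.4 and 13.3 on the BMDC arrays, with 14.6 in activated FL-Y and 25.1 in FL-Y. The log2 difference was 3.40 ± 0.47 (limma, adjusted p = 0.0153, 0.0594 without BMDC array 1), and the gene was below the filter without either FDC array or with a floor in place of the offset.

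The 2 that fell, Lcp2 and Ptprc, serve other blood cells as well. Lcp2, the adaptor SLP-76, had 357 and 310 on the FDC arrays, against 4860 and 7690 on the BMDC arrays, and its log2 difference was -4.14 ± 0.42 (limma, adjusted p = 0.00658). Ptprc, the phosphatase CD45 that activates LCK, had 823 and 423 on the FDC arrays, against 13794 and 7715 on the BMDC arrays, and fell by 4.09 ± 0.53 (limma, adjusted p = 0.0125) on the log2 scale. The kinase Zap70, which binds phosphorylated CD3 chains, had 291 and 142 on the FDC arrays, against 161 and 190 on the BMDC arrays, and its difference was 0.21 ± 0.47 (limma, adjusted p = 0.840). The adaptor Lat had 190 and 202 on the FDC arrays, against 690 and 272 on the BMDC arrays, a difference of -1.09 ± 0.54 (limma, adjusted p = 0.306).

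Of 25 T cell and NK cell markers, 16 were tested, and limma called 0 higher and 2 lower in FDC (before adjustment, 4 and 3 had p under 0.05). Their median log2 difference was 0.53. The 2 that fell were Ccr7, the chemokine receptor of migrating dendritic cells and T cells, and the chemokine Ccl5. Ccr7 had 146 and 117 on the FDC arrays, against 7009 and 5173 on the BMDC arrays, a difference of -5.38 ± 0.40 (limma, adjusted p = 0.00341). Ccl5 had 138 and 150 on the FDC arrays, against 3514 and 8134 on the BMDC arrays, a difference of -5.08 ± 0.52 (limma, adjusted p = 0.00669). Thy1, which marks T cells in mice and also fibroblasts, had 10081 and 4327 on the FDC arrays, against 2334 and 978 on the BMDC arrays, a difference of 2.12 ± 0.64 (limma, adjusted p = 0.123). Thy1 read 15681 in FL-Y, where Cd3d was under background level. Gzmb, a protease of cytotoxic cells, was named after its value was seen. It had 1198 and 1709 on the FDC arrays, against 332 and 35.0 on the BMDC arrays. The difference was 3.47 ± 0.95 (limma, adjusted p = 0.0951), and it ranged from 2.06 to 4.88 when 1 array was left out. Gzmb was higher on FDC array 2, where Cd3d, Cd3g and Cd8b1 were lower.

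Among the ligands and partners of the IL-7 receptor, 11 of 13 listed genes were tested, and limma called 0 higher and 1 lower in FDC (before adjustment, 1 and 3 had p under 0.05). Their median log2 difference was -0.77. Stat5a, a transcription factor that this receptor activates, had 358 and 363 on the FDC arrays, against 2179 and 1979 on the BMDC arrays, and fell by 2.48 ± 0.37 (limma, adjusted p = 0.0182, 0.0502 to 0.0834 without 1 array); the call was also lost with no filter (adjusted p = 0.05003). Il7, the ligand, named after its value was seen, had 424 and 350 on the FDC arrays, against 63.8 and 4.4 on the BMDC arrays, with 114 in activated FL-Y and 58.8 in FL-Y. Its log2 difference, FDC minus BMDC, was 3.39 ± 0.73 (limma, adjusted p = 0.0528). It ranged from 2.36 to 4.42 when 1 array was left out, and the mean of its 2 probe sets gave 1.71.

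The ligand Tslp, also named after its value was seen, was below the filter. It read 97.8 and 96.1 on the FDC arrays, against 7.7 and 2.9 on the BMDC arrays, while activated FL-Y gave 1135 and FL-Y 725. Tslp was therefore higher in the line than in FDC, where the receptor chain Il7r had the opposite order. Crlf2, the TSLP receptor partner, had 3625 and 2191 on the FDC arrays, against 5821 and 3745 on the BMDC arrays, a difference of -0.73 ± 0.47 (limma, adjusted p = 0.430). Jak3, a kinase bound to the common gamma chain, had 263 and 196 on the FDC arrays, against 518 and 612 on the BMDC arrays, a difference of -1.26 ± 0.39 (limma, adjusted p = 0.128).

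**Figure D3:**
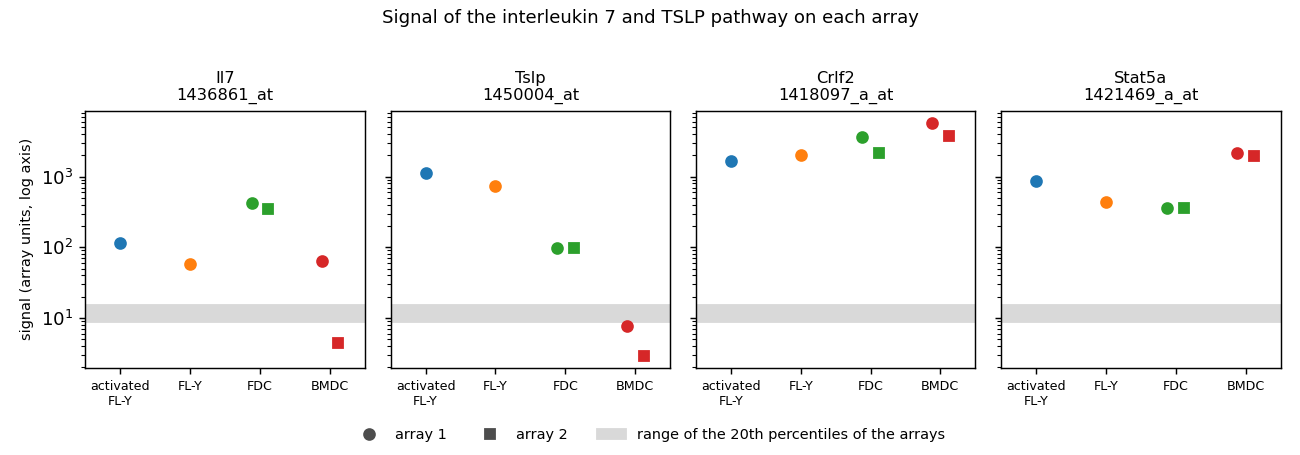
Signal (log axis, array units) of Il7, Tslp, Crlf2 and Stat5a on each array, with circles for array 1, squares for array 2 and the grey band for the range of the 20th percentiles. Tslp is highest in activated FL-Y (1135), Il7 on the FDC arrays (424 and 350), and Stat5a on the BMDC arrays.

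LCK belongs to the Src family of kinases. Of the 8 other genes of this list that were tested, limma called 1 higher and 2 lower in FDC (before adjustment, 2 and 3 had p under 0.05). Their median log2 difference was -0.41. Frk, a family relative of epithelial cells, rose by 3.32 ± 0.50 (limma, adjusted p = 0.0193), with 277 and 291 on the FDC arrays, against 30.0 and 5.9 on the BMDC arrays. It was called without BMDC array 1 (limma, adjusted p = 0.0257) and lost when any other array was left out (0.0540 to 0.0604) or a floor replaced the offset (0.0644). Fgr, a myeloid kinase, had 9.2 and 86.8 on the FDC arrays, against 1387 and 2782 on the BMDC arrays, a difference of -5.35 ± 0.80 (limma, adjusted p = 0.0187, 0.0607 without BMDC array 2 and 0.0632 with a floor in place of the offset). The adaptor Pag1, which recruits the inhibitor of these kinases, had 67.1 and 54.3 on the FDC arrays, against 660 and 995 on the BMDC arrays, and differed by -3.47 ± 0.41 (limma, adjusted p = 0.00989). On the mean of its 4 probe sets the difference was -1.44 and was not called (limma, adjusted p = 0.0702).

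**Figure D4:**
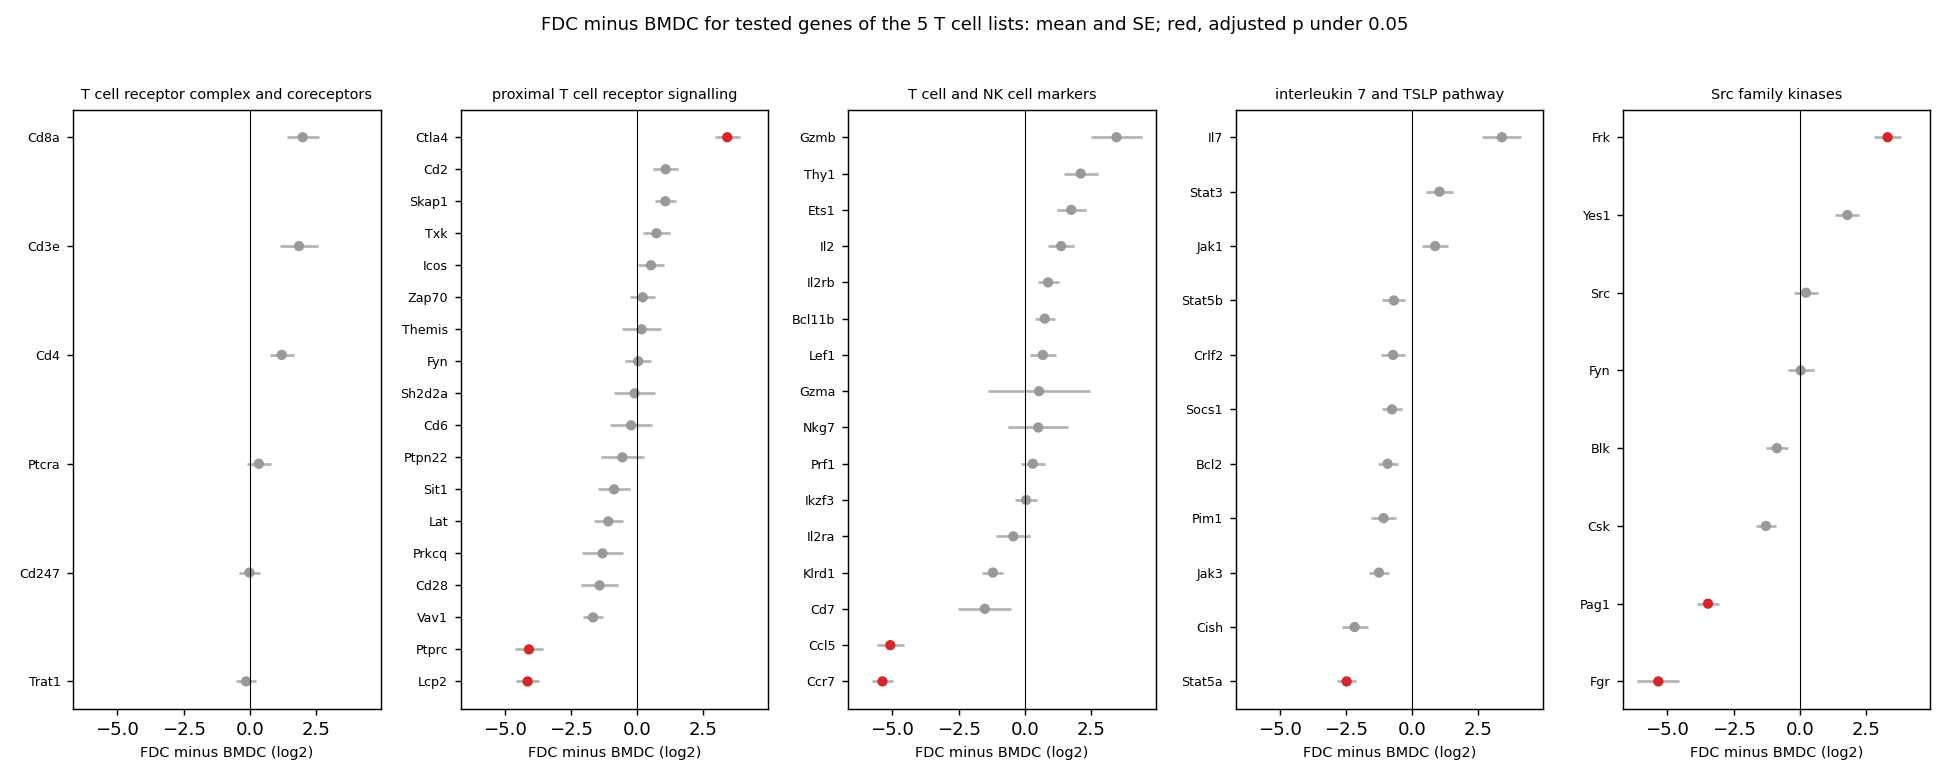
Log2 difference, FDC minus BMDC, of the tested genes of 5 lists around the T cell receptor and IL-7 receptor; points are estimates, bars the SE, and red marks an adjusted p under 0.05. Red points are Ctla4 and Frk on the right, and Ptprc, Lcp2, Ccl5, Ccr7, Stat5a, Pag1 and Fgr on the left.

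Over the 5 lists, each gene taken once, 58 genes were tested and 9 called, 2 higher and 7 lower in FDC, beside 5.87% and 5.40% of all genes tested. Their median difference was 0.01. The members were left out of these counts.

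Markers of other cells moved on the same FDC arrays. The counts of risen and fallen genes here are limma calls, beside 5.87% and 5.40% of all genes tested. Of 9 mast cell markers tested, 4 (Mcpt4, Tpsb2, Tpsab1 and Cma1) rose and 0 fell. Both FDC arrays lay above both BMDC arrays for those 4 and below them for 2, Hdc and Kit. Over all probe sets tested these shares were 25.8% and 28.9%. Hdc read 93.6 and 23.7 on the FDC arrays, against 236.2 and 247.5 on the BMDC arrays. The summed signal of the 9 markers was 7827 and 14138 on the FDC arrays, against 6087 and 1394 on the BMDC arrays and 331 in FL-Y. The higher sum on FDC array 2 was carried by genes such as Cma1, with 1990 and 4919 on FDC arrays 1 and 2, while Tpsab1 read 1651 and 1253. Cpa3, Fcer1a and Ms4a2 overlapped between the groups. Cpa3 read 1449 and 2968 on the FDC arrays, against 2621 and 396 on the BMDC arrays. Fcer1a read 522 and 2481 on the FDC arrays, against 1862 and 218 on the BMDC arrays. Of 12 myeloid markers 0 rose and 12 fell, with sums of 7922 and 3909 on the FDC arrays, against 379881 and 303672 on the BMDC arrays. Of 10 B cell markers Ebf1 rose and Blnk fell, with sums of 2565 and 983 on the FDC arrays, against 8343 and 3939 on the BMDC arrays. Ebf1 supplied 1865 and 486.5 of the sums on FDC arrays 1 and 2, and also read 921 in FL-Y. Of 10 stromal markers 9 rose and 0 fell. Of 13 FDC markers 0 rose and 3 fell (Fcgr2b, Mfge8 and Clu). Both FDC arrays lay above both BMDC arrays for 4 of the 13 and below them for 3, near the shares over all probe sets. Mfge8 read 5146 and 6484 on the FDC arrays, against 27358 and 25082 on the BMDC arrays. The complement receptor Cr2, which defines these cells, read 120 and 4.1 on the FDC arrays, against 59.1 and 71.1 on the BMDC arrays. The chemokine Cxcl13, made by follicular stroma, read 1288 and 64.5 on the FDC arrays, against 50.9 and 36.4 on the BMDC arrays. Other members of the list were strong on both FDC arrays, such as Vcam1, an adhesion molecule, with 6959 and 5764 on the FDC arrays, against 108 and 875 on the BMDC arrays. For the T cell and NK cell markers the sums were 13843 and 8293 on the FDC arrays, against 15855 and 15558 on the BMDC arrays and 16669 in FL-Y. These sums were carried by genes that other cells also express: Thy1 supplied 15681 of the FL-Y sum and 10081 of that on FDC array 1, and Ccr7 and Ccl5 most of the BMDC sums. They therefore give no order of T cell content. The part of such cells in the Cd3d, Cd3g and Cd8b1 signal was not tested.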

How the data were processed

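Biotin-labelled total RNA was measured on 1 oligonucleotide array per sample, per the labels. The authors deposited 1 linear intensity per probe set and array; the program that made the values is not given in the sources used here. Each array has a mean of about 500 after trimming 2% at each end. The platform annotation named 1 gene for 34945 probe sets, and several for 932, which were not used.

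An offset of 14.2, which is the median of the arrays' 20th percentiles, was added to each value before taking log2. Probe sets with a mean over the FDC and BMDC arrays above the 40th percentile were tested, 27022 in all, without 64 control probe sets. FDC against BMDC was fitted in R 4.3.3 with lmFit and eBayes of limma 3.58.1 (2 residual and 3.35 prior degrees of freedom). Two-sided p-values were adjusted by Benjamini-Hochberg across the whole tested table and called at 0.05. The fit was tested on simulated data. A gene was read by its probe set of highest mean over the 6 arrays. FL-Y groups have 1 array and no test. Precision is limited by how few arrays there are.

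The members and lists were chosen with earlier results of these data known. Named genes are the members, the called genes of each T cell list or else the 2 with the largest difference, defining markers, and the 3 most alike per member. All others, among them Tslp, Gata3 and the named markers of other cells, were chosen after their values were seen. Alternatives were another offset or floor, quantile or median scaling, no filter, a replicate block, leaving out each array, and averaging a gene's probe sets. Promoter sequences are from RefSeq (GRCm38.p6).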

Additional observations from a re-analysis of the deposited data

How the results depend on the processing

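Across the alternatives, 37 values of the member differences, FDC minus BMDC, moved by less than the spread between arrays, 4 by more, and 0 changed sign. Cd3g moved to 4.05 with a floor at the 5th percentile and no offset and to 2.43 with an offset at the 40th percentile, and Cd8b1 to 4.50 and 1.97. Both BMDC signals of Cd8b1, and 1 of Cd3g, were at or under background level. Leaving out 1 array gave 3.15 to 4.74 for Cd3d, 2.69 to 3.94 for Cd3g, 2.85 to 3.43 for Cd8b1, and -5.00 to -3.61 and -5.47 to -4.27 for the Il7r probe sets. The FL-Y minus FDC difference of Cd3d was -7.65 with the floor and -3.70 with the larger offset. The probe sets called between FDC and BMDC numbered 2413, against 1454 with the floor, 1433 with no filter and 1312 to 2090 without 1 array. Of the T cell lists 9 genes were called, and 6 to 12 under the alternatives; 0 of them were called higher with the floor or without either FDC array. Without 1 array Cd247 ranged from -0.31 to 0.29 and Zap70 from -0.27 to 0.69, neither called. The shared numbers did not show that arrays were paired: array 1 minus array 2 had r = 0.20 between FDC and BMDC, taken over probe sets. With a replicate block 2392 probe sets and 12 list genes were called, with Cd8a (adjusted p = 0.0481), Thy1 (0.0436) and Il7 (0.0473) added. Pag1 was not called on the mean of its probe sets (-1.44), and Frk and Fgr were not with the floor (adjusted p = 0.0644 and 0.0632). Where the cause of a change is not given, the cause was not tested.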

Other observations

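Some genes of the T cell lists differed between the activated FL-Y array and the FL-Y array, while Cd3d, Cd3g and Cd8b1 stayed near or under background level. These genes were picked after their values were seen, from 1 array each, so no replicate check exists. Ptpn22, a phosphatase that restrains T cell receptor signalling, had 968 in activated FL-Y, against 62.3 in FL-Y, a log2 difference of 3.68. Socs1, an inhibitor of cytokine signalling, had 86.6 in activated FL-Y, against 3.5 in FL-Y, which was under background level. The chemokine Ccl5 had 300 in activated FL-Y, against 59.5 in FL-Y, a log2 difference of 2.09. Stat5a had 858 in activated FL-Y, against 434 in FL-Y.

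Gata3, a transcription factor of T cells and of other lineages, was also named after its value was seen. It was below the filter, with 156 and 101 on the FDC arrays, against 5.5 and 2.7 on the BMDC arrays. Activated FL-Y gave 186 and FL-Y 146 for it, so its signal did not follow Cd3d into background level in the line.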
